A study of Mus musculus with 9 samples.

Results

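Cytosolic and mitochondrial chaperone genes were examined in RNA-Seq data of newborn mouse lenses. The 40 genes were taken by name from the 47729 genes listed in each table, and all 40 were found. They comprise 2 heat shock factors, 8 genes of the HSP70 and HSP110 families, 2 HSP90 genes, 4 mitochondrial chaperones, 7 J-domain (HSP40) genes, 4 BAG genes, 6 other co-chaperones and 7 subunits of the TRiC chaperonin. Small heat shock proteins are not among them. Whole lenses of newborn non-transgenic *FVB/N* mice were compared with lenses from mice hemizygous for *P0-3.9GFPCre* or *Le-Cre*, both kept on the same *FVB/N* background, which carries the *rd1* photoreceptor mutation in all 3 lines. Both transgenes express the recombinase CRE together with GFP from a fragment of the *Pax6* P0 promoter, as a GFP-CRE fusion in *P0-3.9GFPCre* and as separate proteins in *Le-Cre*, whose present strain descends from 1 founder. Each line had 3 pools, and each pool held 6 lenses from 3 mice. The comparison asks which transcripts differ in hemizygous lenses of each transgenic line relative to the background strain.

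Chaperones bind unfolded proteins and help them to fold, to assemble or to be degraded. HSP70 works in cycles of ATP hydrolysis that J-domain proteins start and that nucleotide exchange factors such as HSP110 and BAG proteins reset, whereas HSP90 and the barrel-shaped TRiC complex act on particular clients such as kinases, receptors, actin and tubulin. Under stress, heat shock factor 1 binds repeats of a short element in chaperone promoters and raises their transcription. Lens fibre cells keep their proteins for life after they lose their nuclei and organelles, and protein folding is therefore much studied in this tissue.

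Total expected counts, the estimated number of reads per pool, were 23299676 to 26959813 in *FVB/N*, 20670968 to 23291675 in *P0-3.9GFPCre* and 22615381 to 28098059 in *Le-Cre*. Between 39.1% and 43.0% of a pool came from crystallin genes. Counts of 4 Y-linked genes (*Uty*, *Kdm5d*, *Eif2s3y* and *Ddx3y*) ranged from 121 to 193 CPM (counts scaled to library size) in the *FVB/N* pools, 1.66 to 135 in the *P0-3.9GFPCre* pools and 0.602 to 74.2 in the *Le-Cre* pools, so the line and the Y-linked share were not independent. As a check of the labelled tissue, 10 fibre markers summed to at least 215682 CPM in every pool. The 5 lens epithelial markers summed to 451 to 490 CPM in *FVB/N*, 421 to 483 in *P0-3.9GFPCre* and 405 to 444 in *Le-Cre*. Their *Le-Cre* pools thus lay below the *FVB/N* pools, although 0 of the 5 had an unadjusted p under 0.05 in edgeR's fit. Whether this bears on the chaperone genes was not tested. Of 4 keratins of surface epithelium, all stayed under 1 CPM in every pool. Other non-lens markers were detected. Blood markers summed to 45.0 to 88.9 CPM in *FVB/N*, 41.7 to 68.9 in *P0-3.9GFPCre* and 45.3 to 120 in *Le-Cre*. Vessel markers summed to 80.4 to 103, 55.4 to 96.2 and 73.7 to 93.0 CPM in the same order. Pigment epithelium markers summed to 2.05 to 14.6, 2.87 to 7.03 and 2.67 to 7.61 CPM. The lines overlapped for each list, and any effect on chaperone levels was not tested. In pooled tissue, fewer cells of a type and less RNA per cell cannot be told apart.

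The promoters of the chaperone genes were read first, because they show the element that several members share. The RefSeq table of GRCm38.p6 gave 34 of the 40 members a window from 250 bases before to 50 bases after a start. The heat shock element was searched on both strands as GAANNTTC and TTCNNGAA. At least 1 of these forms lay in the windows of 16 of the 34 members (47.1%), compared with 16.97% of all 27025 genes in the table. GAANNTTC was present in 13 members (38.2%, all genes 9.04%) and TTCNNGAA in 8 members (23.5%, all genes 9.60%). A run of 3 units in alternating orientation, which contains both of the forms, was found in 5 members (14.7%), against 0.662% of all genes. These 5 were *Hspe1*, *Hspd1*, *Dnajb6*, *Hsph1* and *Chordc1*. *Hspe1* and *Hspd1* share the same run, and the near-identical *Hspa1a* and *Hspa1b* both count among the 16, so the members are not all separate sites. The run of *Hsph1* begins 16 or 37 bases after its starts. A match describes the letters alone and is not evidence of binding.

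The sites of *Hspe1* (chr1:55088051-55088080, plus strand), *Dnajb6* (chr5:29735844-29735873, plus strand), *Hsph1* (chr5:149636279-149636308, minus strand) and *Chordc1* (chr9:18292260-18292289, plus strand) show the 3-unit form. Capitals mark matches to the element.

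Hspe1: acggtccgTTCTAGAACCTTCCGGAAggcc
Dnajb6: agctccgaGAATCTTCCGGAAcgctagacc
Hsph1: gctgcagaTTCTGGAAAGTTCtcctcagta
Chordc1: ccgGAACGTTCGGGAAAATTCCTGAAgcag

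*Hspe1* and *Hspd1* lie head to head, and this stretch of *Hspe1* is also part of 1 of the windows of *Hspd1*. Further stretches belong to the J-domain genes with the smallest p values in the comparisons that follow, namely *Dnajb1* (chr8:83608025-83608174, plus strand), *Dnaja4* (chr9:54699414-54699513, plus strand) and *Dnajb4* (chr3:152193846-152193995, minus strand).

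Dnajb1: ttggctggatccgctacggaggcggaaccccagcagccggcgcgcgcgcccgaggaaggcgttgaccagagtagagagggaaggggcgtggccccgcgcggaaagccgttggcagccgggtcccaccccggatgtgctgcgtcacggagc
Dnaja4: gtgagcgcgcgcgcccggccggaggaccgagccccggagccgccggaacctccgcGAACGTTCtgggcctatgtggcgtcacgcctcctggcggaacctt
Dnajb4: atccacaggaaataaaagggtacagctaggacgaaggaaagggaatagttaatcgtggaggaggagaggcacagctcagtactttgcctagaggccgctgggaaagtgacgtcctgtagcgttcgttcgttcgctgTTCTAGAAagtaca

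*Dnaja4* held GAACGTTC 90 bases before the start of the window printed and a second match, GAACCTTC, at 52 bases before it. The last base of that second match lies past the end of the stretch printed, where it is left in lower case. *Dnajb4* held TTCTAGAA 14 bases before the start of the window printed, a start that lies inside the gene. Another window of each gene lies further upstream and held no match. These windows include chr9:54699133-54699282 for *Dnaja4* and chr3:152210084-152210233 for *Dnajb4*. No match of either form was present in the windows of *Dnajb1*, which says only that these letters are not there. The stress-inducible HSP70 genes *Hspa1a* (chr17:34972157-34972306, minus strand) and *Hspa1b* (chr17:34959239-34959388, minus strand) are printed for another reason, which is how alike this pair of neighbours is.

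Hspa1a: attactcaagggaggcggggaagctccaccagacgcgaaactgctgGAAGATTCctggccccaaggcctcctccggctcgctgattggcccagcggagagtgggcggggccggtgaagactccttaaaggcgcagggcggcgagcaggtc
Hspa1b: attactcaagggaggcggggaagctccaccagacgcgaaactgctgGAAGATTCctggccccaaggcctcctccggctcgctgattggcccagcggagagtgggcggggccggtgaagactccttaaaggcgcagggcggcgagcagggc

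Of the 250 bases before their starts, 247 were identical. Their transcripts are alike as well, and 62.0% of the 51-base sequences of *Hspa1b* also occur in *Hspa1a*, so reads cannot always be assigned to one of them.

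Levels are given as TPM, a measure per transcript length, which allows genes to be set against each other. Over the 9 pools, HSP90 genes made up 42.4% of the summed TPM of the 40 genes, TRiC subunits 25.5% and the HSP70 and HSP110 genes 12.5%. J-domain genes contributed 6.95%, mitochondrial chaperones 5.97%, other co-chaperones 5.37%, BAG genes 1.03% and the heat shock factors 0.230%. The highest member was *Hsp90ab1*, the constitutive cytosolic HSP90, with a mean of 1720 TPM and a range over pools of 1597 to 1865 TPM, which made it the 34th gene of all by mean TPM. *Hsp90aa1*, the inducible HSP90, followed with 808 to 1332 TPM, and *Hspa8*, the constitutive HSP70 known as HSC70, with 521 to 784 TPM. The ranges of these 3 genes did not overlap one another.

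Below them stood the TRiC subunits *Tcp1* (309 to 390 TPM), *Cct3* (286 to 355 TPM) and *Cct5* (277 to 329 TPM), whose ranges overlapped. *Cct8* had 198 to 266 TPM and *Hspe1*, the mitochondrial HSP10, 160 to 206 TPM, so these neighbours overlapped too. At the other end, *Hspa2*, an HSP70 known mainly from testis, had 0.94 to 1.69 TPM. *Hspa1b* had 0.03 to 0.29 TPM and *Hspa1a* 0 to 0.18 TPM. Both genes of the inducible HSP70 pair thus stayed under 1 TPM in all 9 pools, beside abundant HSC70 transcript.

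**Figure D1:**
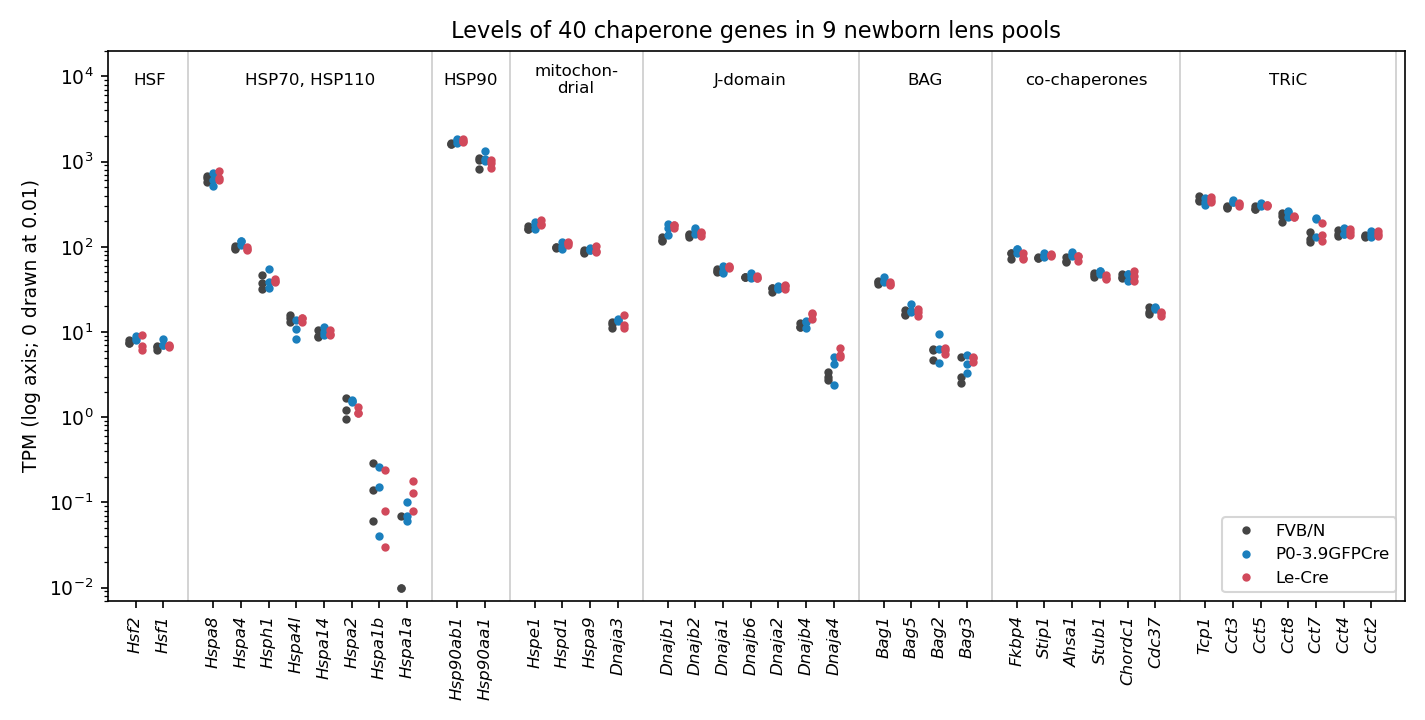
Level of each of the 40 chaperone genes in TPM on a log axis, grouped by class and ordered by mean within a class, with 1 point per pool, the 3 lines in separate colours and values of 0 drawn near the foot of the axis. *Hsp90ab1* stands highest (1597 to 1865 TPM) and *Hspa1a* and *Hspa1b* lowest, and for most genes the pools of the 3 lines lie close together.

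For comparisons between lines, counts were scaled to CPM of the library size normalized by TMM. The 40 genes summed to between 7700 and 8212 CPM in *FVB/N*, between 7871 and 8707 CPM in the *P0-3.9GFPCre* pools and between 8304 and 8536 CPM in *Le-Cre*. The 3 *Le-Cre* pools lay above the 3 *FVB/N* pools, and the *P0-3.9GFPCre* pools overlapped both. The J-domain genes had 751 to 820 CPM in *FVB/N*, 797 to 948 CPM in the *P0-3.9GFPCre* pools and 910 to 957 CPM in *Le-Cre*. Their *Le-Cre* pools were above the *FVB/N* pools, and this was also so of the HSP90 genes, at 2574 to 2733 CPM in *FVB/N* and 2817 to 2847 CPM in *Le-Cre*. TRiC subunits, at 2268 to 2382 CPM in the *FVB/N* pools and 2277 to 2499 CPM in *Le-Cre*, overlapped, as did the HSP70 and HSP110, mitochondrial, BAG and other co-chaperone classes and the factors. In CPM, *Dnajb1* carried much of the J-domain difference. Its mean rose from 259 in *FVB/N* to 362 in *Le-Cre*, and the class mean from 789 to 926. *Dnaja1*, *Dnaja2*, *Dnajb2* and *Dnajb6* overlapped between these lines, so the rise was not class-wide. The sums of the 40 genes lay closest in *FVB/N* replicate 3 (8212) and *Le-Cre* replicate 2 (8304). That gap was smaller than the gap of *Dnajb1* in the same pools (254 and 354). The separations above were in CPM. In TPM the *Le-Cre* and *FVB/N* pools still did not overlap for the J-domain genes, at 464 to 486 against 391 to 418 TPM. They overlapped for the HSP90 genes, at 2601 to 2923 TPM in *Le-Cre* and 2405 to 2722 TPM in *FVB/N*, and for the sum of the 40 genes, at 6275 to 6910 and 5893 to 6353 TPM.

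Of the 40 genes, 39 passed the filter on low counts and were tested, *Hspa1a* being the exception. The cutoff was a change of 1.5-fold or more and an adjusted p no higher than 0.05 over the 15557 genes tested. Between *Le-Cre* and *FVB/N*, 0 of 39 chaperone genes passed it by edgeR's quasi-likelihood test (all genes 0.0643%), and 1 passed by DESeq2 and 0 by limma. DESeq2 put 49 genes in all past it, against 10 by edgeR. At an unadjusted p under 0.05, 3 members were higher in *Le-Cre* (7.69%, all genes 3.6%) and 0 were lower (all genes 4.35%). All 3 were J-domain genes, namely *Dnajb1*, *Dnaja4* and *Dnajb4*. The pools did not overlap for 5 members that were higher (12.8%, all genes 6.46%), which adds *Hspe1* and *Cct3*, and for 2 that were lower (5.13%, all genes 7.03%), *Fkbp4* and *Cdc37*. The number at an unadjusted p under 0.05 was 5 without *FVB/N* replicate 1, 6 without *FVB/N* replicate 3 and 5 without *Le-Cre* replicate 2. The median log2 fold change was 0.026 over the members, of which 26 were positive, and −0.004 over all genes tested.

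In *P0-3.9GFPCre* relative to *FVB/N*, 0 of 39 members passed the cutoff by edgeR's quasi-likelihood test (all genes 0%), and 0 passed by DESeq2 or limma. At an unadjusted p under 0.05, 3 members were higher (all genes 3.41%), which were *Dnajb1*, *Cct3* and *Cct8*, and 0 were lower (all genes 3.41%). Only *Dnajb1* was left, as 1 member, without *P0-3.9GFPCre* replicate 3. Pools did not overlap for 5 members that were higher (all genes 6.02%), these 3 with *Ahsa1* and *Cct5*, and for 0 that were lower (all genes 5.94%). The median was 0.051 over the members, 30 of them positive, and 0 over all genes. This comparison and the previous one share the 3 *FVB/N* pools.

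In *Le-Cre* relative to *P0-3.9GFPCre*, 0 of 39 members passed the cutoff by edgeR's quasi-likelihood test (all genes 0%), and 0 passed by DESeq2 or limma. At an unadjusted p under 0.05, 3 members were higher in *Le-Cre* (all genes 3.63%), namely *Dnaja4*, *Dnajb4* and *Hspa4l*, and 3 were lower (all genes 4.25%), namely *Cdc37*, *Stub1* and *Fkbp4*. Leaving out *Le-Cre* replicate 1 or *Le-Cre* replicate 3 reduced these 6 members to 3. Pools did not overlap for 4 members that were higher (10.3%, all genes 6.74%) and for 6 that were lower (15.4%, all genes 7.37%). The median was −0.042 over the members and −0.002 over all genes.

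J-domain proteins deliver unfolded clients to HSP70 and stimulate its ATPase. *Dnajb1*, the main heat-inducible HSP40 of the cytosol (chr8:83608193-83612653), had 276, 246 and 254 CPM in the *FVB/N* pools, 330, 283 and 384 CPM in the *P0-3.9GFPCre* pools and 348, 354 and 384 CPM in *Le-Cre*. All 6 transgenic pools were above the 3 *FVB/N* pools, and the transgenic lines overlapped each other. From a mean of 259 ± 15.5 CPM (SD, n = 3 pools) in *FVB/N*, the level was 362 ± 19.4 CPM in *Le-Cre* and 332 ± 50.1 CPM in *P0-3.9GFPCre*. The difference of *Le-Cre* was 1.40-fold, with a log2 fold change of 0.49, a standard error (SE) of 0.10 and a 95% interval of 0.27 to 0.70 (unadjusted p = 0.00045, adjusted p = 0.175 by edgeR's quasi-likelihood test). That of *P0-3.9GFPCre* was 1.29-fold, a log2 fold change of 0.36 with an SE of 0.10 (adjusted p = 0.590 by the same edgeR test). *Dnajb1* therefore did not pass the cutoff in either line. Under alternatives apart from left-out pools its adjusted p ranged from 0.000227 (DESeq2) to 0.954 in *Le-Cre*, and from 0.0246 (edgeR without the filter on low counts) to 0.751 in *P0-3.9GFPCre*, so that in some of them only its size, under 1.5-fold, kept it from the cutoff. It was well measured, with 5713 to 9787 counts per pool.

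*Dnaja4*, an inducible type I J-domain protein (chr9:54698873-54716315), had 9.46, 7.40 and 8.68 CPM in *FVB/N*, 13.1, 6.44 and 11.2 CPM in the *P0-3.9GFPCre* pools and 17.5, 14.0 and 14.8 CPM in *Le-Cre*. All *Le-Cre* pools were above all other pools, and *P0-3.9GFPCre* replicate 2 was the lowest of the 9. The log2 fold change of *Le-Cre* relative to *FVB/N* was 0.86, or 1.81-fold, with an SE of 0.21 and a 95% interval of 0.39 to 1.33 (unadjusted p = 0.00198, adjusted p = 0.296 by edgeR). It passed the cutoff by DESeq2 (adjusted p = 0.0204) and without the filter on low counts (adjusted p = 0.00115 by edgeR), and over all alternatives apart from left-out pools its adjusted p ranged from 0.00115 to 0.969. Relative to *P0-3.9GFPCre*, the log2 fold change of *Le-Cre* was 0.59 with an SE of 0.21 (adjusted p = 0.531 by edgeR's quasi-likelihood test). *P0-3.9GFPCre* and *FVB/N* differed by 0.27 with an SE of 0.22.

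*Dnajb4*, a type II J-domain protein (chr3:152178511-152210302), had 27.5, 23.7 and 23.9 CPM in *FVB/N*, 25.3, 23.6 and 27.7 CPM in the *P0-3.9GFPCre* pools and 32.2, 31.1 and 32.0 CPM in *Le-Cre*. The *Le-Cre* pools were again above the other 6, which overlapped. The log2 fold change of *Le-Cre* was 0.34 relative to *FVB/N* and 0.32 relative to *P0-3.9GFPCre*, each with an SE of 0.084 (adjusted p = 0.288 and 0.395 by edgeR's quasi-likelihood test). *P0-3.9GFPCre* and *FVB/N* differed by 0.03 with an SE of 0.085. The other J-domain genes, *Dnaja1*, *Dnaja2*, *Dnajb2* and *Dnajb6*, had log2 fold changes between −0.05 and 0.11 in the 3 comparisons, and none had an unadjusted p under 0.05. *Dnajb1*, *Dnaja4* and *Dnajb4* share at most 0.317% of their 51-base sequences with other genes.

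**Figure D2:**
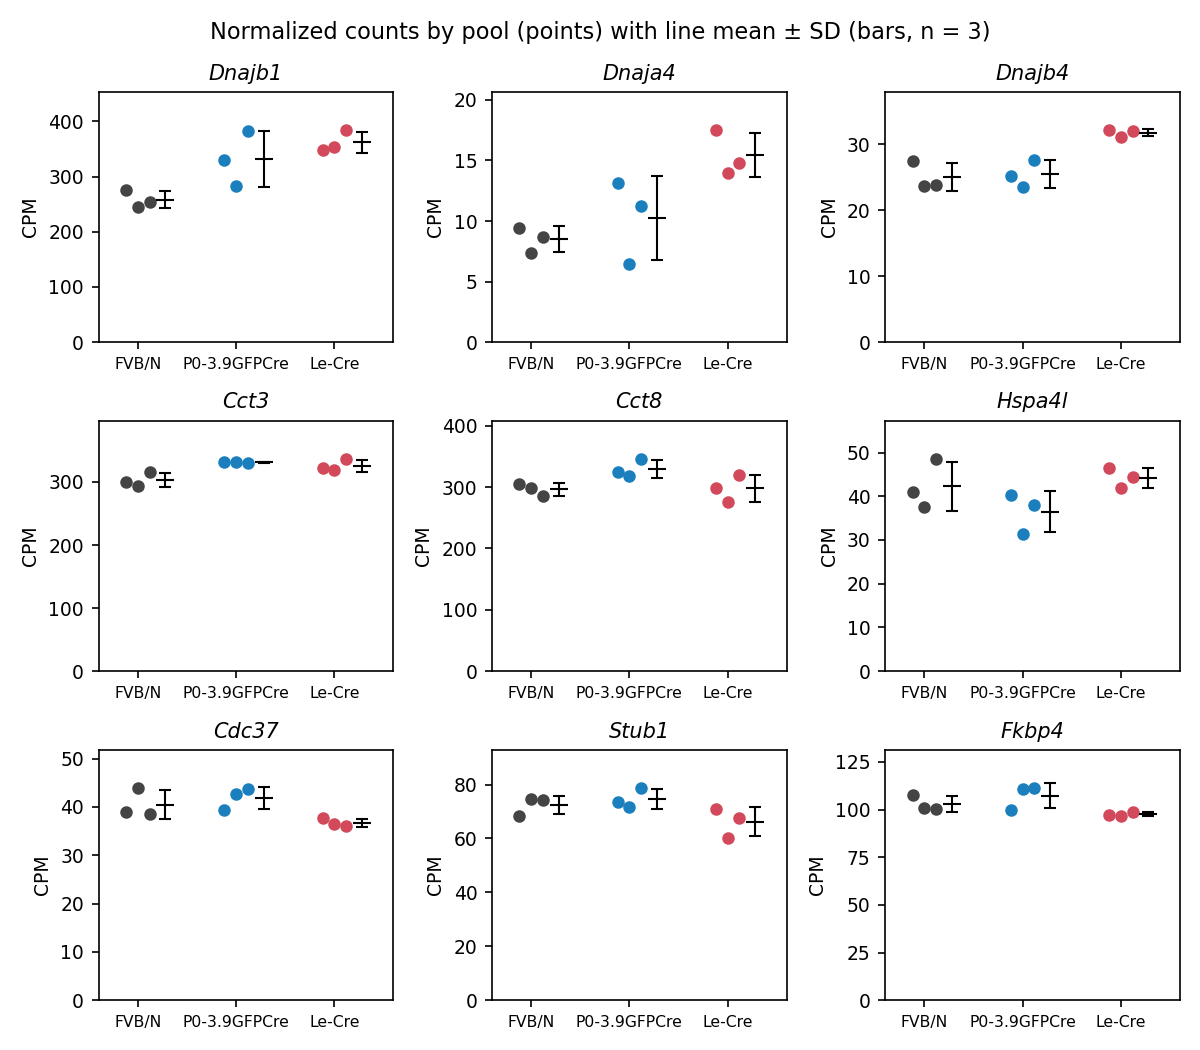
Normalized counts in CPM of the 9 members with an unadjusted p under 0.05 in any comparison, 1 point per pool of each line, with the mean and SD of the line (n = 3 pools) as a bar beside the points and axes that start at 0. The *Dnajb1* points of the transgenic pools lie at 283 CPM or higher and those of *FVB/N* at 276 CPM or lower, and *Dnaja4* and *Dnajb4* are highest in the 3 *Le-Cre* pools.

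The Y-linked share moved with *Dnajb1* in some pools and not in others. The pools with the fewest Y-linked reads were *Le-Cre* replicate 3 (0.602 CPM), *Le-Cre* replicate 1 (1.55) and *P0-3.9GFPCre* replicate 3 (1.66), and the pools highest in *Dnajb1* included *Le-Cre* replicate 3 and *P0-3.9GFPCre* replicate 3, both at 384 CPM. Within *P0-3.9GFPCre*, *Dnajb1* was at 384, 330 and 283 CPM in the pools with 1.66, 56.2 and 135 Y-linked CPM. The last of these, *P0-3.9GFPCre* replicate 2, was also the lowest of the 9 pools for *Dnaja4* (6.44 CPM) and *Dnajb4* (23.6 CPM). *FVB/N* replicate 2, with the most Y-linked reads (193 CPM), had the lowest *Dnajb1* value. Against this order, *Le-Cre* replicate 1 had less *Dnajb1* (348 CPM) than *Le-Cre* replicate 2 (354 CPM), where Y-linked reads were at 74.2 CPM. *FVB/N* replicate 3 (121 Y-linked CPM) had less than *FVB/N* replicate 1 (130), at 254 and 276 CPM. *Dnaja4* had 13.1 CPM in *P0-3.9GFPCre* replicate 1 (56.2 Y-linked CPM) and 11.2 CPM in *P0-3.9GFPCre* replicate 3. Once that share was added to the fit as a covariate, the log2 fold change of *Le-Cre* relative to *FVB/N* was 0.21 for *Dnajb1*, 0.25 for *Dnaja4* and 0.17 for *Dnajb4*, with SEs of 0.111, 0.257 and 0.118. That of *Dnajb1* in *P0-3.9GFPCre* was 0.16 with an SE of 0.0933. None of these values had an unadjusted p under 0.05 in that edgeR fit. Because no *FVB/N* pool was low in Y-linked reads, the line and this share cannot be told apart fully in 9 pools. In the same fit, *Le-Cre* relative to *P0-3.9GFPCre* gave 0.27 with an SE of 0.0808 for *Dnajb4* and 0.43 with an SE of 0.171 for *Dnaja4*. Their adjusted p values were 0.669 and 0.772 by edgeR's quasi-likelihood test.

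**Figure D3:**
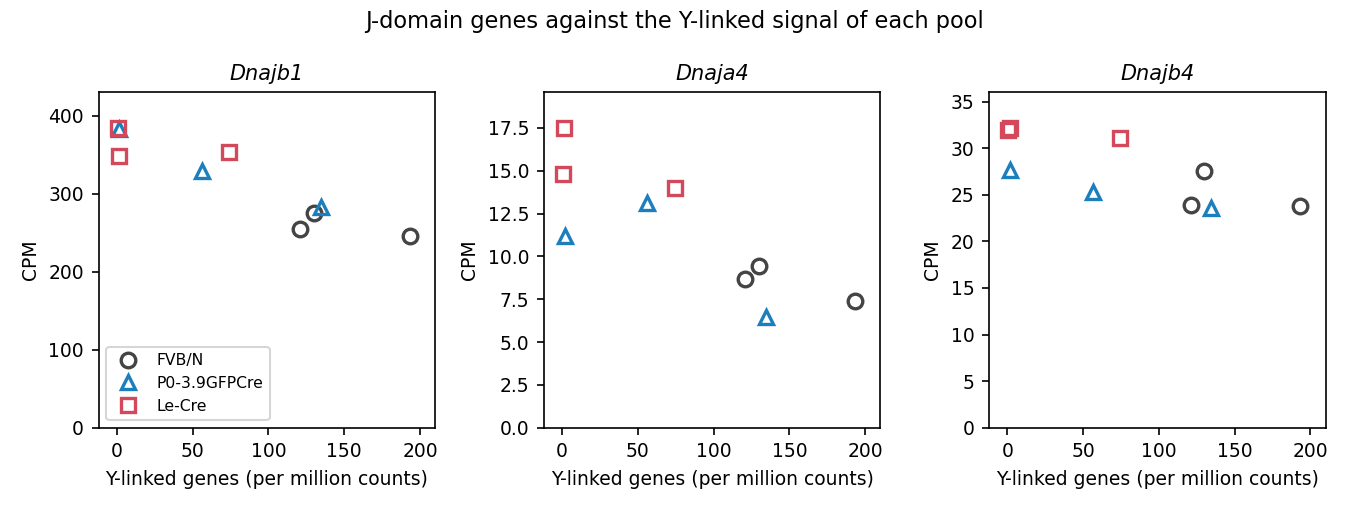
CPM of *Dnajb1*, *Dnaja4* and *Dnajb4* in each pool against the summed Y-linked CPM of that pool, with the lines in separate colours. *FVB/N* pools lie at 121 to 193 Y-linked CPM, and the 3 pools under 2 CPM belong to the transgenic lines.

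Of the 7 HSP70 and HSP110 genes tested, 0 had an unadjusted p under 0.05 in edgeR's fit in either transgenic line relative to *FVB/N*. Between the transgenic lines, pools did not overlap in CPM for *Hspa4l*, which was higher in *Le-Cre*, or for *Hspa2*, *Hspa4* and *Hspa14*, which were lower. In TPM the pools of *Hspa4l* and *Hspa14* did overlap. *Hspa8*, the most abundant of them, had 591, 515 and 639 CPM in *FVB/N*, 661, 467 and 558 CPM in the *P0-3.9GFPCre* pools and 573, 623 and 547 CPM in *Le-Cre*. The 3 lines overlapped entirely, and the log2 fold changes of *Le-Cre* and *P0-3.9GFPCre* were −0.0014 and −0.05, each with an SE of 0.12. *Hspa8* shares 38.3% of its 51-base sequences with other genes, mostly pseudogenes.

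*Hspa4l*, an HSP110 relative that exchanges nucleotide on HSP70, had 40.9, 37.5 and 48.5 CPM in *FVB/N*, 40.3, 31.3 and 37.9 CPM in the *P0-3.9GFPCre* pools and 46.4, 41.9 and 44.5 CPM in *Le-Cre*. All *Le-Cre* pools were above all *P0-3.9GFPCre* pools in CPM, and *FVB/N* overlapped both. In TPM, *Le-Cre* (12.99 to 14.63) and *P0-3.9GFPCre* (8.29 to 13.71) overlapped. The mean length of its assigned transcripts ranged from 2919 to 4100 bases over the pools. *Le-Cre* relative to *P0-3.9GFPCre* gave 0.28 with an SE of 0.11 (unadjusted p = 0.0300, adjusted p = 0.556 by edgeR's quasi-likelihood test). *P0-3.9GFPCre* relative to *FVB/N* gave −0.21 with an SE of 0.11 (unadjusted p = 0.0838 in edgeR's fit). With the Y-linked share as covariate this was −0.42 with an SE of 0.113 (unadjusted p = 0.00405, adjusted p = 0.598 by edgeR), and the unadjusted p was under 0.05 in 6 of 18 alternatives, over which it ranged from 0.00405 to 0.361 and the adjusted p from 0.598 to 0.973. *Hspa4* and *Hsph1*, both of the HSP110 family, had log2 fold changes between −0.10 and 0.09 in the 3 comparisons.

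The summed counts of *Hspa1a* and *Hspa1b* were 9.94, 17 and 9.28 in the *FVB/N* pools, 21.96, 6.18 and 12.35 in *P0-3.9GFPCre* and 7.99, 23.48 and 16.27 in *Le-Cre*. At under 1 CPM in every pool, the lines overlapped. Relative to *FVB/N*, the sum gave a log2 fold change of 0.39 for *Le-Cre* and 0.28 for *P0-3.9GFPCre*, with unadjusted p of 0.517 and 0.645 in edgeR's fit. *Hspa1b* alone gave −0.52 with an SE of 0.84 in *Le-Cre*, so the sign differed between the gene alone and the sum. A change in the inducible HSP70 pair was not detectable at these counts.

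Of the other members, 15 were set against this sum over the 9 pools. Across these 15 genes, Pearson's r of log2(CPM + 0.5) ranged from −0.42 for *Fkbp4* to 0.61 for *Chordc1*. By exact permutation tests, the smallest adjusted p was 0.707 for Pearson's r and 0.657 for Spearman's rho. Spearman's rho was −0.30 for *Fkbp4* and 0.52 for *Chordc1*. Without the 2 pools farthest from the median, r for *Chordc1* was −0.07, so that relation rested on those pools. *Dnajb1* gave an r of 0.35 and a rho of 0.28, and an r of 0.30 with values centred on each line.

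*Hsf1*, which drives the heat shock response, had 12.7, 12.3 and 12.04 CPM in *FVB/N*, 14.5, 12.6 and 12.9 CPM in the *P0-3.9GFPCre* pools and 13.1, 11.7 and 12.9 CPM in *Le-Cre*. *Hsf2*, a related factor of development, had 19.5, 17.8 and 19.0 CPM, then 19.5, 21.0 and 18.9 CPM, then 16.5, 21.0 and 15.6 CPM in the same order of lines. Both factors overlapped between all lines. The log2 fold changes of *Le-Cre* were 0.02 for *Hsf1* and −0.09 for *Hsf2*, with SEs of 0.093 and 0.11. *Hsf4*, the heat shock factor that the lens depends on, had 211 to 254 CPM in the 9 pools and log2 fold changes of −0.04 in *Le-Cre* and −0.01 in *P0-3.9GFPCre*, each with an SE of 0.074.

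Of the HSP90 genes, *Hsp90ab1* had 1545, 1538 and 1650 CPM in *FVB/N*, 1626, 1566 and 1727 CPM in the *P0-3.9GFPCre* pools and 1812, 1650 and 1705 CPM in *Le-Cre*. The lowest *Le-Cre* pool and the highest *FVB/N* pool were level at 1650 CPM, and the log2 fold change was 0.13 with an SE of 0.064 (unadjusted p = 0.0744 in edgeR's fit). *Hsp90aa1* had 1036 to 1164 CPM in the *FVB/N* pools and 1034 to 1167 CPM in *Le-Cre*, and these pools overlapped. It shares 47.3% of its 51-base sequences with other genes.

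Of 6 co-chaperones of HSP90 and HSP70, 3 were lower in *Le-Cre* than in *P0-3.9GFPCre* at an unadjusted p under 0.05. *Cdc37*, which brings kinases to HSP90, had 38.9, 43.9 and 38.5 CPM in *FVB/N*, 39.3, 42.6 and 43.7 CPM in the *P0-3.9GFPCre* pools and 37.7, 36.5 and 36.1 CPM in *Le-Cre*. *Fkbp4*, an immunophilin of steroid receptor complexes, had 108, 101 and 101 CPM, then 99.8, 111 and 111 CPM, then 97.2, 96.7 and 98.7 CPM in the same order. For both genes every *Le-Cre* pool lay below every pool of the other lines in CPM. In TPM, *Fkbp4* of *Le-Cre* (72.85 to 85.06) overlapped *FVB/N* (71.84 to 85.43) and *P0-3.9GFPCre* (83.43 to 95.15). *Cdc37* of *Le-Cre* (15.4 to 17.21 TPM) overlapped *FVB/N* (16.17 to 19.61 TPM) and lay below *P0-3.9GFPCre* (18.44 to 19.61 TPM). *Stub1*, the ubiquitin ligase CHIP that marks clients for degradation, had 68.5, 74.5 and 74.2 CPM in *FVB/N*, 73.7, 71.5 and 78.7 CPM in the *P0-3.9GFPCre* pools and 71.0, 60.2 and 67.6 CPM in *Le-Cre*, where *Le-Cre* overlapped *FVB/N*. The log2 fold changes of *Le-Cre* relative to *P0-3.9GFPCre* were −0.19 for *Cdc37*, −0.17 for *Stub1* and −0.14 for *Fkbp4*, with adjusted p of 0.554, 0.615 and 0.633 by edgeR's quasi-likelihood test. *Stip1*, *Ahsa1* and *Chordc1* had log2 fold changes between −0.10 and 0.16 in the 3 comparisons and no unadjusted p under 0.05.

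Among mitochondrial chaperones, *Hspe1* (HSP10, the lid of the HSP60 chamber) had 120, 109 and 116 CPM in *FVB/N*, 125, 107 and 121 CPM in the *P0-3.9GFPCre* pools and 123, 132 and 130 CPM in *Le-Cre*. The *Le-Cre* pools were above the *FVB/N* pools and overlapped *P0-3.9GFPCre*. The log2 fold change of *Le-Cre* relative to *FVB/N* was 0.15 with an SE of 0.071 (unadjusted p = 0.0557 in edgeR's fit). *Hspd1*, the HSP60 that works with it and shares its promoter region, gave −0.02 with an SE of 0.075. *Hspa9*, the mitochondrial HSP70, gave 0.07 and its J-domain partner *Dnaja3* gave 0.04.

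BAG proteins release nucleotide from HSP70. *Bag1*, the most abundant of them, had 43.5, 45.1 and 49.1 CPM in *FVB/N*, 42.3, 45.6 and 50.7 CPM in the *P0-3.9GFPCre* pools and 45.9, 39.9 and 43.2 CPM in *Le-Cre*, and the lines overlapped. *Bag3*, which directs clients to autophagy and is stress-inducible, had 6.997, 5.81 and 12.7 CPM, then 9.30, 7.65 and 12.3 CPM, then 11.8, 11.4 and 10.8 CPM in the same order. *FVB/N* replicate 3 was the highest of all 9 pools for *Bag3*, and the log2 fold change of *Le-Cre* was 0.41 with an SE of 0.26 and a 95% interval of −0.15 to 0.98. Over fits that left out 1 pool it ranged from 0.20 to 0.82.

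TRiC folds actin and tubulin, and its subunits are needed in equal numbers. *Tcp1* had 699, 670 and 673 CPM in *FVB/N*, 674, 663 and 699 CPM in the *P0-3.9GFPCre* pools and 677, 651 and 719 CPM in *Le-Cre*, and the lines overlapped. *Cct3* had 301, 293 and 316 CPM in *FVB/N*, 331, 331 and 330 CPM in the *P0-3.9GFPCre* pools and 322, 319 and 336 CPM in *Le-Cre*, so *FVB/N* was the lowest line without overlap. *Cct8* had 305, 299 and 285 CPM in *FVB/N*, 325, 318 and 346 CPM in the *P0-3.9GFPCre* pools and 298, 275 and 320 CPM in *Le-Cre*, so *P0-3.9GFPCre* lay above *FVB/N* and *Le-Cre* overlapped both.

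The differences were small. In *P0-3.9GFPCre* relative to *FVB/N*, *Cct3* gave 0.13 with an SE of 0.054 and *Cct8* gave 0.15 with an SE of 0.067 (adjusted p = 0.695 and 0.719 by edgeR's quasi-likelihood test). The median over the 7 subunits was 0.084 in that comparison and 0.049 in *Le-Cre* relative to *FVB/N*. All 7 values were positive in the latter, as were 7628 of the 15557 genes tested. Those of *Tcp1* (0.0042, SE 0.058) and *Cct8* (0.0078, SE 0.067) were near 0, and both changed sign under some alternatives.

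Among the subunits, TPM and CPM differed most for *Cct7*. RSEM derives TPM from an effective length, the mean length of the transcripts it assigned, and that length ranged from 878 to 1719 bases for *Cct7*, 1.96 times from lowest to highest pool. The TPM of *Cct7* spanned 1.89 times between pools, whereas its CPM spanned 1.15 times. *Tcp1* spanned 1.26 times in TPM and 1.105 times in CPM. In TPM, *Cct3* of *Le-Cre* (298 to 329) overlapped *FVB/N* (286 to 303), whereas *P0-3.9GFPCre* (332 to 355) still lay above *FVB/N*. *Cct8* of *P0-3.9GFPCre* (223 to 266 TPM) overlapped *FVB/N* (198 to 247 TPM). *Cct7* was the only member with a length ratio above 1.5, and 21 members were under 1.1. *Hsp90aa1* had a ratio of 1.38 in length, 1.65 in TPM and 1.176 in CPM.

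**Figure D4:**
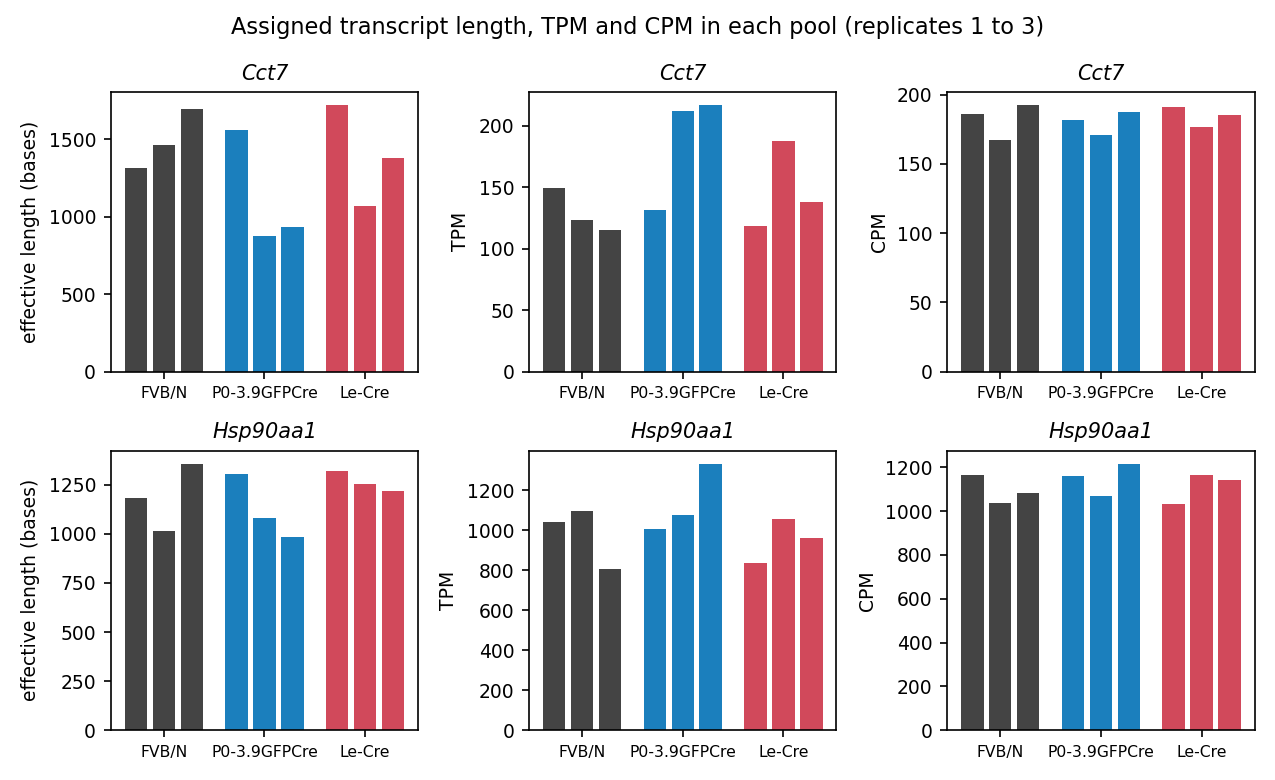
Effective length in bases, TPM and CPM of *Cct7* (upper row) and *Hsp90aa1* (lower row), 1 bar per pool with the lines in separate colours and axes that start at 0. For *Cct7* the length and the TPM differ by 1.96 and 1.89 times between pools, and the CPM bars differ by 1.15 times.

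The precision of the fit sets what can be said of members that did not pass. The biological coefficient of variation had a median of 8.47% over the members and 13.1% over all genes tested, and the median half-width of a 95% interval was 0.17 on the log2 scale. Between *Le-Cre* and *FVB/N*, the interval lay within a 1.5-fold change in both directions for 34 of 39 members. The other 5 were *Dnajb1*, *Bag3*, *Dnaja4*, *Hspa2* and *Hspa1b*. In each of the other comparisons it did so for 35 members, and *Bag3*, *Dnaja4*, *Hspa2* and *Hspa1b* were the remaining 4.

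**Figure D5:**
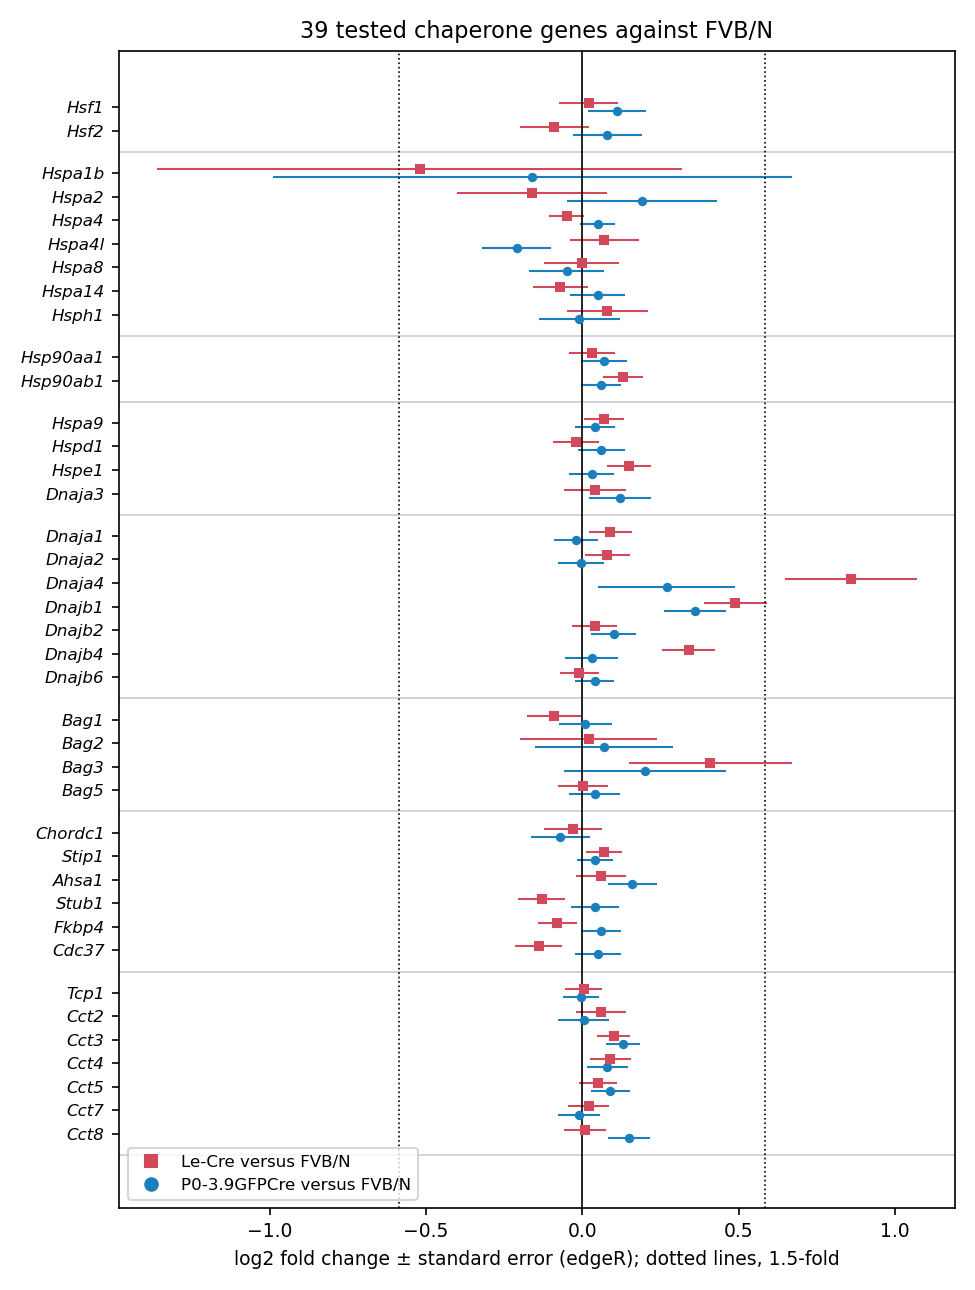
Log2 fold change of each of the 39 tested chaperone genes in *Le-Cre* (squares) and *P0-3.9GFPCre* (circles) relative to *FVB/N*, with bars of 1 standard error from edgeR's fit and dotted lines at 1.5-fold in either direction. The bars of *Hspa1b* are the longest, and *Dnaja4* at 0.86 is the only point past a dotted line.

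Further chaperone genes outside the 40 were examined as 5 lists of 61 genes, of which 60 were tested and 0 passed the cutoff in any comparison by edgeR's quasi-likelihood test. In *Le-Cre* relative to *FVB/N*, 1 had an unadjusted p under 0.05 with a higher level (all genes 3.6%) and 2 with a lower level (all genes 4.35%). In *P0-3.9GFPCre* the numbers were 4 and 0 (all genes 3.41% and 3.41%), and in *Le-Cre* relative to *P0-3.9GFPCre* 0 and 2 (all genes 3.63% and 4.25%). *Sgta*, a co-chaperone that handles tail-anchored proteins, had 74.3 ± 1.43 CPM in the *P0-3.9GFPCre* pools and 64.4 ± 1.90 CPM in *Le-Cre* (SD, n = 3 pools), a log2 fold change of −0.21. *Pfdn2*, a subunit of the prefoldin complex that passes actin and tubulin to TRiC, had 28.1 ± 2.45 CPM and 23.0 ± 1.03 CPM in the same lines, a log2 fold change of −0.29. *Dnajc2*, a ribosome-associated J-domain protein, was 0.21 higher in *P0-3.9GFPCre* than in *FVB/N*, and *St13*, an HSP70-interacting protein, 0.15 higher. *Cct6b*, a TRiC subunit known mainly from testis, was at 0.76 CPM in the *FVB/N* pools and 0.39 CPM in *Le-Cre*. Within the further list of mitochondrial genes, *Grpel1* and *Hscb* had the smallest p values. Their log2 fold changes were 0.13 and 0.27 in *Le-Cre* relative to *FVB/N*, and neither had an unadjusted p under 0.05 in edgeR's fit. *Ahsa2* and *Hsbp1* had log2 fold changes between −0.09 and 0.20 in the 3 comparisons.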

How the data were processed

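RNA-Seq was performed by the authors on polyadenylated RNA of 9 lens pools as single-end reads, which they trimmed with Trimmomatic 0.36, mapped to GRCm38 with GSNAP and quantified with RSEM 1.3.0. The gene annotation is not given in the sources used here. The deposited tables hold expected counts, which RSEM estimated without normalization, TPM, which the authors obtained by scaling for length and depth, and the effective length in bases, another deposited column. Groups and replicate numbers came from sample titles. In 1 *FVB/N* pool the number in the description differs from that in the title, which leaves comparisons by replicate number uncertain there.

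Expected counts were rounded and tested with edgeR 4.0.16 in R 4.3.3 (TMM, filterByExpr, 1 coefficient per line over 9 pools, glmQLFit and glmQLFTest, Benjamini-Hochberg adjustment over 15557 genes). Because pooled mice share a library, p values measure the spread between pools, and an exact permutation test of 3 pools against 3 cannot give a two-sided p below 0.1. DESeq2 1.42.0, limma 3.58.1 on log2(TPM + 0.1), other normalizations and filters, covariates and left-out pools were alternatives. The test was checked on simulated data. Members and lists were chosen with earlier results of these data known. Values per pool are given for members with an unadjusted p under 0.05 in any comparison, for *Hsf1*, *Hsf2*, *Hspa1a* and *Hspa1b*, and for the highest member by TPM and the largest change of each class. Of each further list, up to 2 genes with the smallest p are named, and *Hsf4* is among them.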

Additional observations from a re-analysis of the deposited data

How the results depend on the processing

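In *Le-Cre* relative to *FVB/N*, the 3 members with an unadjusted p under 0.05 became 6 with total counts in place of TMM factors and 5 with DESeq2, and the 0 past the cutoff became 1 with DESeq2 and 1 without the filter on low counts (*Dnaja4* in both). In *P0-3.9GFPCre*, 3 became 5 with total counts and 1 with the Y-linked share as covariate, which was *Hspa4l* at a lower level and none of the 3, and in *Le-Cre* relative to *P0-3.9GFPCre*, 6 became 2 with limma on TPM. Limma on TPM, and sums with genes that share reads, were chosen after seeing the data. The median of the members moved to −0.0709 (Y-linked covariate) and 0.0728 (limma) in *Le-Cre*, and to −0.0345 and 0.121 in *P0-3.9GFPCre*. Leaving out 1 pool gave 3 to 6 members under 0.05 in *Le-Cre*, 1 to 4 in *P0-3.9GFPCre* and 3 to 5 between the transgenic lines, whose median ranged from −0.0473 to 0.0051. The causes were not tested. With the replicate number as a block, 4, 2 and 4 members were under 0.05 and 0 passed the cutoff in each comparison. Pools with the same number had residual correlations of −0.15 to 0.143, and 4 of 9 pools correlated best with their own number, so the numbers were not taken to pair the pools. Of 972 log2 fold changes of named genes under alternatives, 69 changed sign, none of them with an unadjusted p under 0.05, and 38 of these came from leaving out a pool. In *Le-Cre* relative to *FVB/N*, the Y-linked covariate gave −0.0607 for *Hsf1*, 0.0981 for *Hsf2*, 0.277 for *Hspa1b*, −0.231 for *Hspa4l*, −0.0042 for *Hsp90ab1*, −0.182 for *Bag3*, −0.084 for *Tcp1* and −0.109 for *Cct8*. *Hspa8* gave 0.0375 with total counts, 0.0015 with the compared pools only, 0.0071 with the replicate block and 0.0865 with limma, which also gave −0.0455 for *Hspa4l* and −0.0412 for *Tcp1*. The sum of *Hspa1a* and *Hspa1b* gave 0.394. Without 1 pool, values ranged from −0.0059 to 0.0725 for *Hsf1*, −1.52 to 0.104 for *Hspa1b*, −0.0115 to 0.178 for *Hspa4l*, −0.0804 to 0.074 for *Hspa8*, −0.0364 to 0.0397 for *Tcp1* and −0.0486 to 0.0645 for *Cct8*. For *P0-3.9GFPCre* against *FVB/N*, the Y-linked covariate gave 0.576 for *Hspa1b*, −0.0345 for *Hsp90ab1*, −0.0517 for *Hspe1*, −0.171 for *Dnaja4*, −0.0908 for *Dnajb4*, −0.0918 for *Bag1*, −0.233 for *Bag3* and −0.0459 for *Stub1*. Total counts gave 0.0083 for *Hspa8* and 0.0474 for *Tcp1*, the replicate block 0.072 for *Hspa1b*, and the sum of *Hspa1a* and *Hspa1b* 0.281. Without 1 pool, values ranged from −0.73 to 0.46 for *Hspa1b*, −0.181 to 0.0711 for *Hspa8*, −0.0141 to 0.101 for *Hspe1*, −0.0359 to 0.101 for *Dnajb4*, −0.0623 to 0.072 for *Bag1*, −0.0115 to 0.608 for *Bag3* and −0.026 to 0.016 for *Tcp1*. In *Le-Cre* relative to *P0-3.9GFPCre*, the Y-linked covariate gave −0.0033 for *Hspa8* and −0.0194 for *Tcp1*, total counts −0.0093 for *Tcp1*, and the sum 0.113. Without 1 pool, values ranged from −1.36 to 0.21 for *Hspa1b*, −0.0698 to 0.182 for *Hspa8* and −0.0316 to 0.0419 for *Tcp1*.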

Other observations

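Immediate-early genes, which encode transcription factors and mRNA regulators induced within minutes of a stimulus, were examined beside the chaperones as a list of 16 genes, of which 13 were tested. Their summed level lay between 114 and 116 CPM in the *FVB/N* pools, 111 and 116 CPM in the *P0-3.9GFPCre* pools and 114 and 120 CPM in the *Le-Cre* pools. In *Le-Cre* relative to *FVB/N*, 3 had an unadjusted p under 0.05 and a higher level (all genes 3.6%), 0 were lower (all genes 4.35%) and 0 passed the cutoff by edgeR's quasi-likelihood test, and the median log2 fold change was 0.34. In *P0-3.9GFPCre* relative to *FVB/N*, 2 were higher (all genes 3.41%) and 0 lower (all genes 3.41%), with a median of 0.11. *Egr1*, a zinc finger factor, had 2.12, 1.59 and 1.11 CPM in *FVB/N*, 1.93, 1.55 and 2.51 CPM in *P0-3.9GFPCre* and 1.96, 3.12 and 4.07 CPM in *Le-Cre*. The difference between *Le-Cre* and *FVB/N* was 0.92 on the log2 scale with a standard error of 0.34 (adjusted p = 0.544 by edgeR), although the pools overlapped. *Zfp36*, which promotes the decay of AU-rich mRNAs, had 1.97, 3.27 and 1.64 CPM in *FVB/N*, 3.62, 3.97 and 3.14 CPM in *P0-3.9GFPCre* and 3.52, 3.55 and 3.80 CPM in *Le-Cre*, and its log2 fold changes relative to *FVB/N* were 0.66 and 0.64 in *Le-Cre* and *P0-3.9GFPCre*. These genes lie at a few CPM, where 1 pool can decide a value.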
